A study of Homo sapiens with 11 samples.

Results

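The MITF and TFE family comprises the genes MITF, TFEB, TFE3 and TFEC, and their loci were examined in 92-1 cells, a line established from a uveal melanoma, which arises from melanocytes of the eye. Each locus was the RefSeq gene body on GRCh38 with 50 kb on either side, and the 4 genes were 4 of 20033 annotated protein-coding genes. Together the 4 windows held 893 of the 888435 peaks in the lists used, 587 of them at MITF, 134 at TFEB, 75 at TFE3 and 97 at TFEC. FHT-1015 inhibits SMARCA4 and SMARCA2, the alternative ATPases of the BAF chromatin remodelling complexes, and cells were compared after 4 h in this compound or in its solvent, DMSO. Chromatin immunoprecipitation followed by sequencing (ChIP-seq) had been done with 5 antibodies, against acetylated lysine of histone H3 (H3K27ac, a mark of active promoters and enhancers), SMARCA4, MITF, TFAP2A (written AP-2 in the sample titles) and SOX10. All groups were the same cell line, with 1 library for each antibody and condition, so differences between conditions have no replicate check and no test is given.

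The 4 proteins are basic helix-loop-helix leucine zipper factors that bind E-box sequences as homodimers or as heterodimers with one another. MITF is the lineage factor of melanocytes and drives pigment genes, and its melanocyte form is transcribed from the most downstream of its promoters, a known target of SOX10, PAX3 and CREB. TFEB and TFE3 turn on lysosome and autophagy genes and are held in the cytoplasm by mTORC1 when nutrients are plentiful, through the Rag GTPases and folliculin. TFEC has been described mainly in macrophages.

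MITF lay at chr3:69739464-69968332 on the plus strand, with 3 annotated starts at positions 69739464, 69763811 and 69936592, of which the last is the melanocyte start. TFEB lay at chr6:41683978-41736223 on the minus strand with 3 starts, TFE3 at chrX:49028726-49043357 on the minus strand with 1 start, and TFEC at chr7:115935152-116159896 on the minus strand with 2 starts. The starts are those of the RefSeq promoter table, at positions 116030763 and 115968309 for TFEC, and the annotated 5′ ends of TFEC, at 116159896, and of TFEB, at 41736223, were not examined as starts. The 250 bases before 4 of these starts are printed from RefSeq (GRCh38.p14), 5′ to 3′ on the strand of the gene. They were chosen because peaks described below overlap them, some only at the bases next to the start. Capitals mark any of the 6 searched motifs. The 2 MITF starts differed in their chromatin, the TFEB start carried a SOX10 peak in DMSO alone, and the TFE3 start carried a stronger H3K27ac peak in FHT-1015.
MITF melanocyte start, chr3:69936342-69936591, plus strand: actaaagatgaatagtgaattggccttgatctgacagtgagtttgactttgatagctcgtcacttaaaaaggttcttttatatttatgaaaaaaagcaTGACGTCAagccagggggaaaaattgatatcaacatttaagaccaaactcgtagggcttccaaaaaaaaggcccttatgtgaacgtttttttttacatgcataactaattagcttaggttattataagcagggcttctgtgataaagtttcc
MITF first start, chr3:69739214-69739463, plus strand: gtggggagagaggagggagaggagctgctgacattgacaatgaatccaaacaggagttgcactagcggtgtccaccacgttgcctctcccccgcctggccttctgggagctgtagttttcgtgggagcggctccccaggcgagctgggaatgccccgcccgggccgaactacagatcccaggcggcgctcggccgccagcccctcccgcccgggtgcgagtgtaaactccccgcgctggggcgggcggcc
TFEB first start, chr6:41735609-41735858, minus strand: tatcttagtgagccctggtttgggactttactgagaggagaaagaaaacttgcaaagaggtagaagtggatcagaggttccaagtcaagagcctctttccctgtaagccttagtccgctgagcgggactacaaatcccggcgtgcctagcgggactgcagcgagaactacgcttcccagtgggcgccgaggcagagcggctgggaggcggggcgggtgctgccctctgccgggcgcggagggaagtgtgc
TFE3 start, chrX:49043358-49043607, minus strand: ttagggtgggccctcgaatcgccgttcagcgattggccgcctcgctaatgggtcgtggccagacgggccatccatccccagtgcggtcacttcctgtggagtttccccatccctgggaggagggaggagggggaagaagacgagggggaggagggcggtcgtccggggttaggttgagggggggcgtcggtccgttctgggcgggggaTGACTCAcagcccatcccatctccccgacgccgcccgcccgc

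The motifs were searched on both strands in the window from 250 bases before to 50 bases after each of 35116 RefSeq starts. The E-boxes CACGTG and CATGTG were in 7.26% and 11.1% of all these windows, the SOX core ACAAAG in 16.1%, the AP-2 motif GCCNNNGGC in 23.2%, the AP-1 motif TGAGTCA in 4.95% and the cyclic AMP response element TGACGTCA in 1.85%. No 2 matches overlapped in the windows of the 4 genes. The melanocyte start of MITF held TGACGTCA, beginning 152 bases before the start, and its window was 37.0% G or C, whereas the first start held none of the 6 motifs and was 70.3% G or C. The TFE3 window held the AP-1 motif on the opposite strand, beginning 42 bases before the start. The second MITF window held the SOX core once, on the opposite strand, and the window of the TFEB start at position 41735060 held the AP-2 motif. The remaining TFEB windows and both TFEC windows held none, and neither E-box was found in any window of the 4 genes.

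The lists held between 33268 peaks (SOX10, FHT-1015) and 142667 peaks (TFAP2A, DMSO). From the fold enrichment and p-value of each peak, the number of reads at its summit was recovered, and relative library depth was recovered from the lowest background of each list. FHT-1015 libraries had between 0.854 times (MITF) and 1.15 times (SOX10) the depth of their DMSO library. The lineage label was checked by H3K27ac in DMSO: MLANA, PMEL, TYR, TYRP1, DCT and SOX10 had between 5 and 19 peaks each, KRT5 and ALB had 0, and PTPRC, a leukocyte gene, had 5. Number alone thus did not set PTPRC apart from TYR and TYRP1, which also had 5. The peaks covered between 8287 bp (DCT) and 44103 bp (SOX10) at the melanocyte genes, and 1484 bp at PTPRC.

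Across the 4 loci, SOX10 had 105 peaks in DMSO and 35 in FHT-1015, while H3K27ac had 109 and 115. SMARCA4 peaks numbered 123 and 101, MITF peaks 59 and 44, and TFAP2A peaks 106 and 96. The ratio of peak number, FHT-1015 over DMSO, was 0.333 for SOX10 beside 0.322 in the whole list. For H3K27ac it was 1.06 beside 0.706, and for SMARCA4 0.821 beside 0.880. MITF had 0.746 beside 1.04, and TFAP2A 0.906 beside 0.834. In the whole MITF list the median summit reads were 15 in DMSO and 8 in FHT-1015, so its number ratio does not measure strength. A DMSO peak was counted as retained when it shared at least 1 bp with any peak that the same antibody gave in FHT-1015. Intervals on these shares are 95% Wilson intervals over peaks, and they cover counting error only. SOX10 retained 24.8% of its peaks at the 4 loci (26 of 105, interval 17.5 to 33.8), against 18.3% in the whole list. H3K27ac retained 77.1% (84 of 109, interval 68.3 to 84.0), against 59.3% in the whole list. TFAP2A retained 65.1% (interval 55.6 to 73.5), against 54.9% in the whole list. SMARCA4 retained 52.8% (interval 44.1 to 61.4) against 52%, and MITF 40.7% (interval 29.1 to 53.4) against 36.2%. The H3K27ac and TFAP2A intervals lay above the whole-list share, and the intervals of SMARCA4, MITF and SOX10 included it. For H3K27ac, the MITF locus held 69 of the 84 retained peaks (80.2% retained, interval 70.6 to 87.3). The H3K27ac intervals at TFEB, TFE3 and TFEC each included the whole-list share. Taken singly, the TFAP2A interval lay above its whole-list share at TFE3 alone (10 of 11 peaks, interval 62.3 to 98.4).

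**Figure D1:**
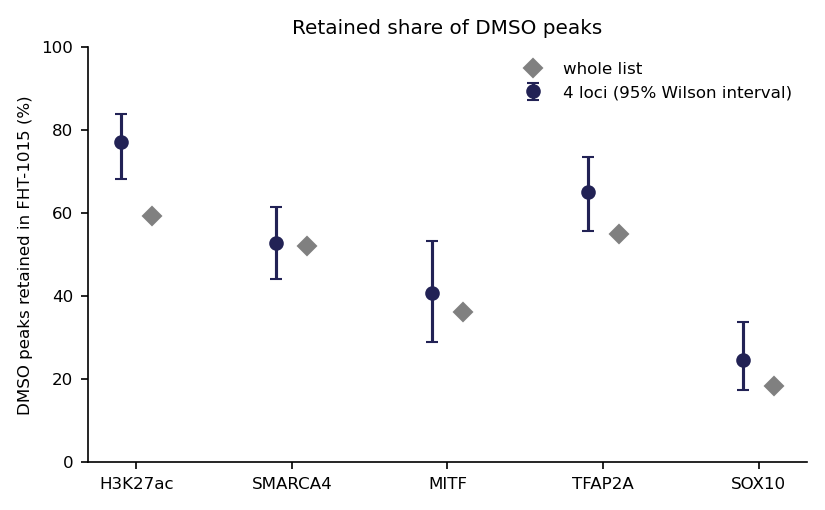
Percentage of DMSO peaks at the 4 loci that shared at least 1 bp with an FHT-1015 peak, per antibody (circles, bars are 95% Wilson intervals over peaks), beside the whole list (diamonds). H3K27ac is highest at 77.1% and SOX10 lowest at 24.8%.

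Peaks found in FHT-1015 alone made up 40.0% of the FHT-1015 H3K27ac peaks at the 4 loci (46 of 115), against 19.8% of the whole list. SMARCA4 had 34.7% of its FHT-1015 peaks in that condition alone, beside 45.4% of the whole list. MITF had 47.7% beside 64.8%, TFAP2A had 26.0% beside 34.4%, and SOX10 had 22.9% beside 38.5%. Most of the FHT-1015-only H3K27ac peaks, 44, lay at MITF, and 3 of those were strong, which here means a −log10 p of at least 10. The strongest of them, at chr3:69969417-69970497 just past the end of MITF, had a −log10 p of 13.3.

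**Figure D2:**
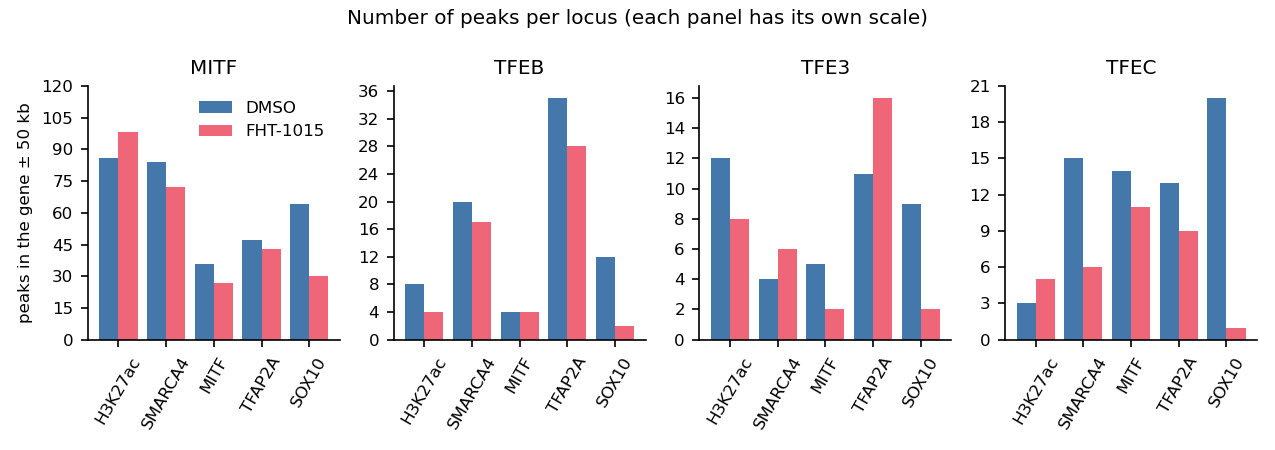
Number of peaks in each gene with 50 kb on either side (y axis, its scale differs between panels), per antibody, in DMSO and FHT-1015 (1 library each). SOX10 bars fall in all 4 panels, from 64 to 30 at MITF and from 20 to 1 at TFEC.

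The loci differed in how densely they were occupied. MITF ranked 3 among 20033 genes by its number of H3K27ac peaks in DMSO (86) and 5 in FHT-1015 (98), with a median of 5 and 4 peaks over all genes. H3K27ac covered 46.8% of its gene body in DMSO and 54.1% in FHT-1015. TFEC, whose body is of almost the same length, had 3 and 5 H3K27ac peaks, which covered 1.09% and 0.510% of its body. Ranks by number favour long genes. The 5 genes most like MITF in their 10 peak numbers, by distance on the log2(number + 1) scale, were MAML3, ARID1B, PCDH7, INPP4B and CDKAL1, and all 5 were longer than MITF, between 426 and 823 kb against 229 kb.

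A fall in peak number to 0.5 times or less was counted for genes with at least 10 DMSO peaks of the antibody in their window. SOX10 met this at MITF (64 to 30), TFEB (12 to 2) and TFEC (20 to 1), and TFE3 had too few peaks to be counted (9 to 2). Of all such genes, 73.7% met it for SOX10, so the 3 loci did as most genes did. SMARCA4 met it at TFEC (15 to 6), as 6.53% of genes did, and not at MITF (84 to 72) or TFEB (20 to 17). H3K27ac, MITF and TFAP2A met it at no member with enough peaks, against 22%, 15.5% and 7.87% of genes. For H3K27ac only MITF and TFE3 had enough peaks, and for the MITF antibody only MITF and TFEC. All members had enough for TFAP2A. With so few members counted, the lack of a call does not set them apart from other genes. H3K27ac at TFEB went from 8 to 4 but had too few peaks to be counted. H3K27ac at MITF had a ratio of peak number of 1.14, and 96.7% of the genes counted had a ratio at or under that.

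At MITF, SOX10 stayed listed at 18 of the 35 strong sites (defined below) that had it in DMSO. H3K27ac stayed listed at 32 of the 33 sites that had it in DMSO. All 25 strong H3K27ac peaks, all 12 strong SMARCA4 peaks, 13 of 15 strong MITF peaks, 20 of 23 strong TFAP2A peaks and 14 of 22 strong SOX10 peaks at this locus were retained. In the whole lists, strong peaks were retained at 87.6% (H3K27ac), 85.2% (SMARCA4), 61.7% (MITF), 71.5% (TFAP2A) and 33% (the SOX10 list). To compare single sites, strong peaks of the 4 factors in either condition were merged into 39 sites at MITF, a grouping chosen after the data were seen. A wide H3K27ac peak can span several sites, so its values there are not independent.

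**Figure D3:**
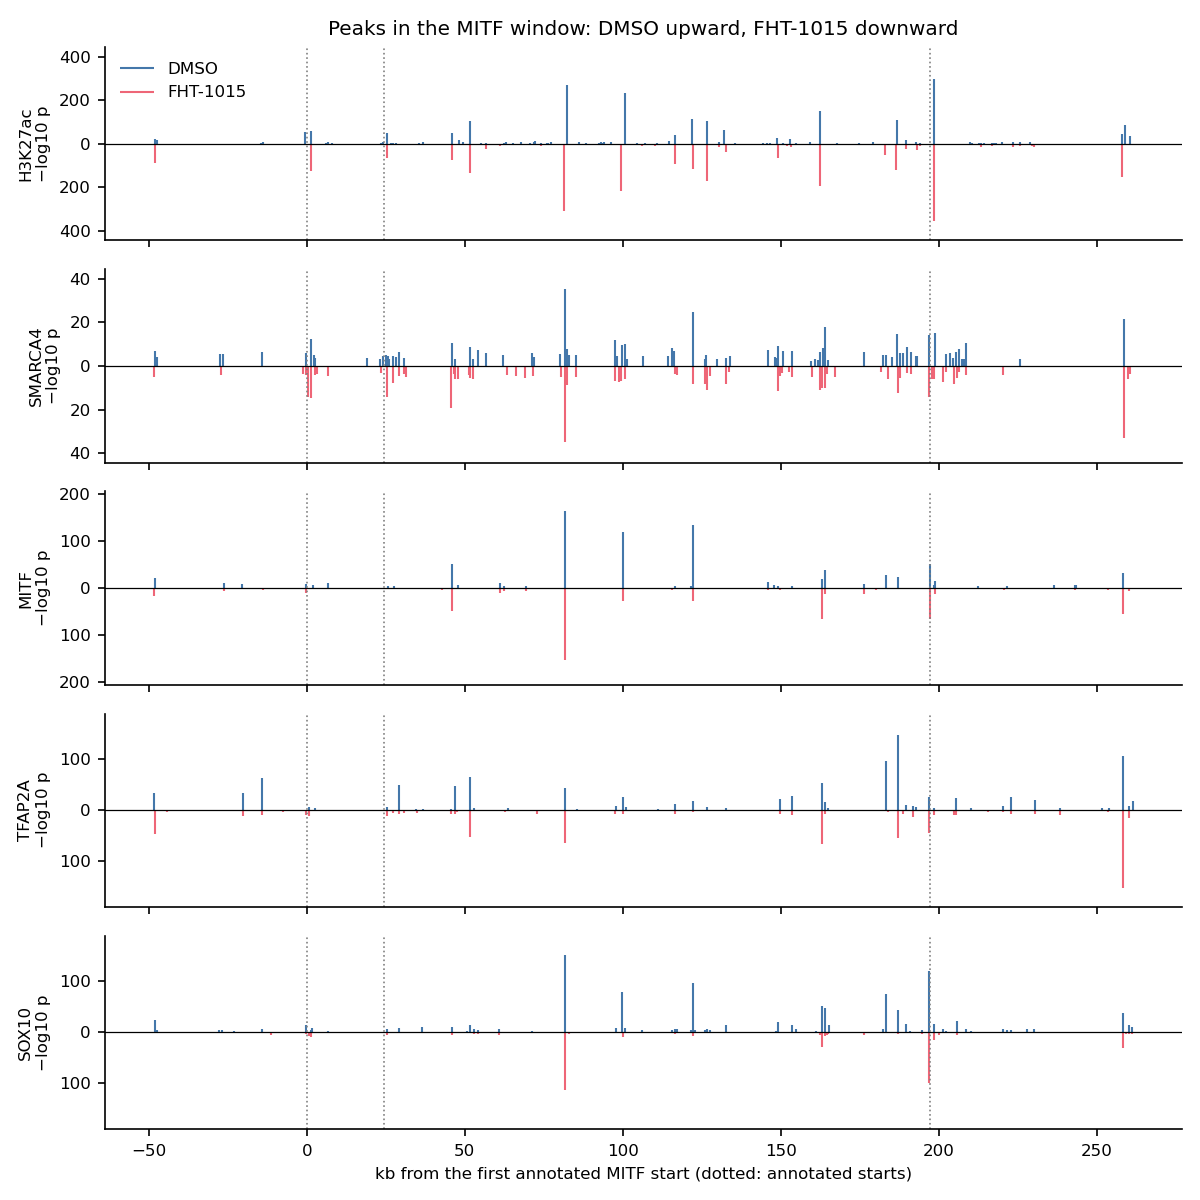
Peaks of each antibody in the MITF window, with DMSO drawn upward and FHT-1015 downward (y axis, −log10 p as deposited, 1 library each; x axis, kb from the first annotated start, dotted lines at the 3 starts). SOX10 lines at 81.9 kb and at the melanocyte start remain long in FHT-1015, and those at 99.7 and 122 kb shrink.

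The melanocyte start kept all 5 antibodies. There, at chr3:69935926-69937351, SOX10 had a −log10 p of 120 in DMSO and 99.2 in FHT-1015, from 119 and 117 summit reads. Its ratio of summit reads, FHT-1015 over DMSO and divided by relative depth, was 0.859 with a 95% counting interval of 0.660 to 1.12. The MITF protein peak over its own promoter had a −log10 p of 52.4 and 67.1 (60 and 72 reads, ratio 1.40, interval 0.983 to 2.01), with its summit 42 and 21 bases before the start. TFAP2A had 25.1 and 45.5 (39 and 57 reads, ratio 1.52, interval 0.996 to 2.35). SMARCA4 had 14.3 and 14.4 (29 and 35 reads, ratio 1.31, interval 0.781 to 2.23). Each of these intervals included 1, so no change in strength was detectable at this depth. The H3K27ac peak over the start spanned 15133 bp in DMSO and 16666 bp in FHT-1015, with 259 and 318 summit reads (ratio 1.17, interval 0.989 to 1.38). The promoter sequence printed above, with its response element, lies inside all of these peaks.

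The strongest SOX10 peak of the locus was not at a start but 81.9 kb into the gene, at chr3:69820510-69822121. SOX10 had a −log10 p of 151 there in DMSO and 113 in FHT-1015 (164 and 152 reads, ratio 0.809, interval 0.645 to 1.02). MITF had 165 and 153 (151 and 142 reads, ratio 1.10, interval 0.869 to 1.39), the strongest MITF peak of the locus in both conditions. SMARCA4 had 35.5 and 34.7 with 62 reads in each, and TFAP2A had 43.6 and 63.5. Another site that kept all 5 antibodies, at chr3:69997152-69998341, lay between MITF and SAMMSON, a long noncoding RNA gene known in melanoma. SOX10 had 38.9 and 31.0 there (67 and 70 reads, ratio 0.912, interval 0.643 to 1.30), and TFAP2A 105 and 152. MITF (ratio 1.58, interval 1.09 to 2.30), SMARCA4 (1.59, interval 1.03 to 2.48) and H3K27ac had more summit reads per depth in FHT-1015 at this site. The reads themselves were 52 and 70 for MITF and 37 and 54 for SMARCA4, and neither interval was clear of 1 when they were not divided by depth.

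SOX10 was weaker at other intronic sites that were about as strong in DMSO. At chr3:69861331-69862021, 122 kb into the gene, its −log10 p went from 96.0 to 6.41 (120 and 24 reads, ratio 0.175, interval 0.108 to 0.272). MITF at the same site went from 134 to 28.1 (135 and 42 reads, ratio 0.364, interval 0.251 to 0.518), and SMARCA4 from 24.8 to 8.27 (ratio 0.458, interval 0.261 to 0.776). The H3K27ac peak over this site was 4744 and 5206 bp wide, with 121 and 130 reads at its summit. At chr3:69838648-69839774, 99.7 kb in, SOX10 went from 78.4 to 9.36 (ratio 0.279, interval 0.182 to 0.420) and MITF from 119 to 27.5 (ratio 0.384, interval 0.260 to 0.555). The H3K27ac peak that spanned this site and its neighbours was 7354 and 7848 bp wide, and its 200 and 217 reads belong to its summit, not to the site.

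A stretch upstream of the melanocyte start lost peaks outright. At chr3:69922182-69923138, 183 kb in, SOX10 (−log10 p 75.6, 81 reads), TFAP2A (97.4, 92 reads), MITF (26.8, 38 reads) and SMARCA4 (4.91, 21 reads) all had a peak in DMSO and none in FHT-1015. A single H3K27ac peak of 7389 bp, with 126 summit reads, spanned this site and the next in DMSO, whereas FHT-1015 had a separate peak over each, of 69 reads here and 144 at the next, so no H3K27ac ratio is given for either site. The site at 183 kb held the strongest lost peak of the locus for SOX10, for TFAP2A and for MITF. At chr3:69925930-69927002, 187 kb in, TFAP2A had its strongest DMSO peak of the locus and went from 148 to 54.8 (136 and 68 reads, ratio 0.521, interval 0.384 to 0.702). SOX10 went from 44.8 to 3.65 there, MITF had 22.6 in DMSO and no peak in FHT-1015, and SMARCA4 had 32 and 28 reads. An absent peak means that none was listed, not that no reads were present.

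Neighbouring sites could differ in direction. At chr3:69901462-69902933, 163 kb in, MITF rose from 28 to 65 summit reads (−log10 p 19.3 and 65.7, ratio 2.72, interval 1.72 to 4.40). At the next site, chr3:69903028-69903862, it fell from 49 to 21 reads (39.1 and 11.9, ratio 0.502, interval 0.286 to 0.852). SOX10 had fewer summit reads per depth at both, with ratios of 0.655 and 0.271.

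**Figure D4:**
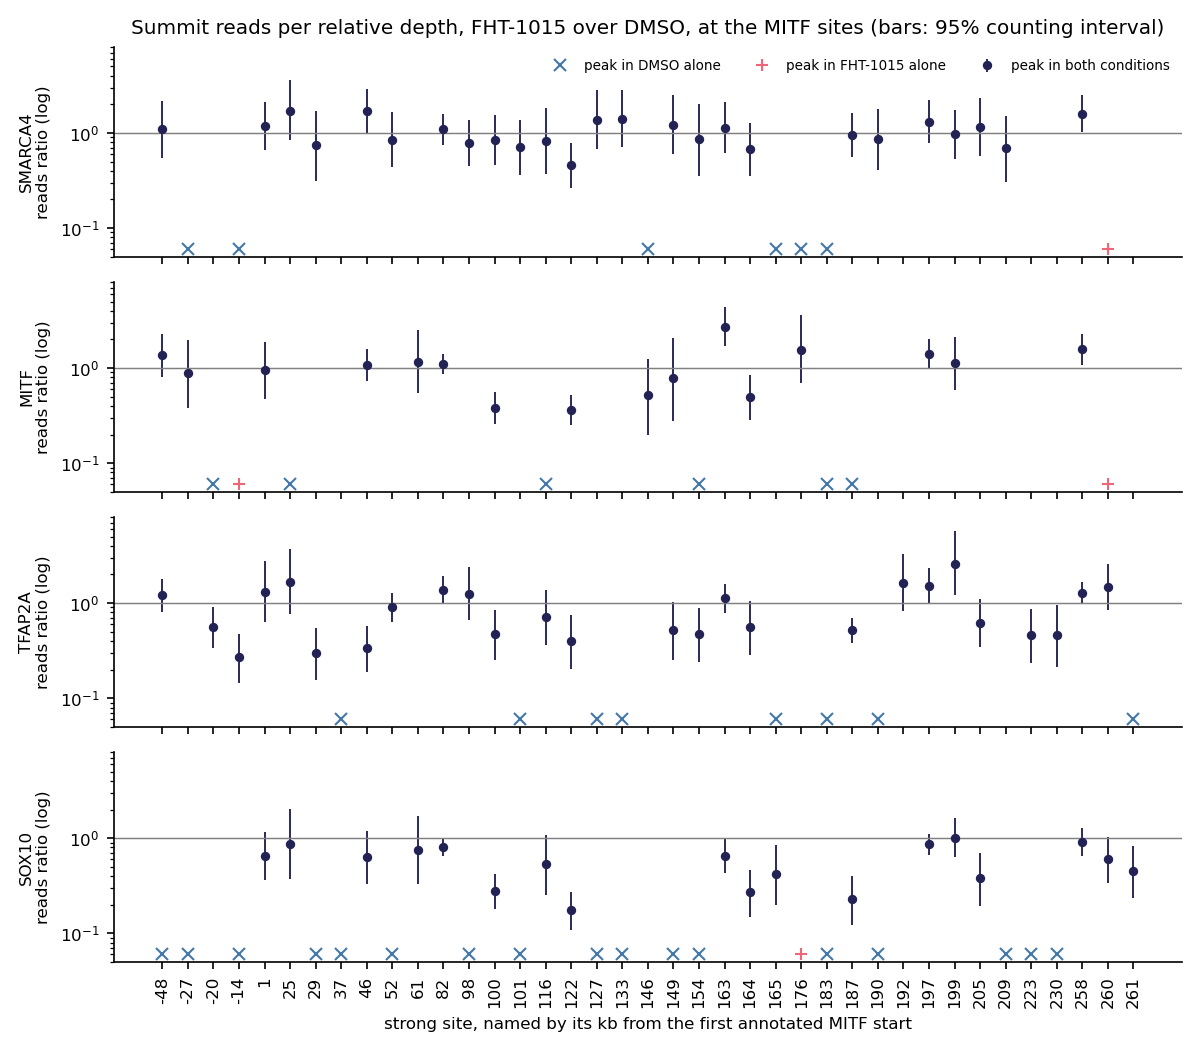
Ratio of summit reads per relative depth, FHT-1015 over DMSO, at the 39 strong sites of MITF (y axis logarithmic, bars are 95% counting intervals; x axis, sites by kb from the first start; crosses mark sites with a peak in 1 condition alone). No SOX10 interval lies above 1, and MITF at 163 kb stands at 2.72.

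Of the 14 strong SOX10 peaks retained at MITF, 9 had fewer summit reads per depth with an interval clear of 1 and 0 had more. Over the 4 loci this was 11 and 0 of 17, against 70.5% and 0.294% of strong retained SOX10 peaks in the whole list, and the median ratio was 0.535 against 0.509. For TFAP2A, 18 of 43 were lower and 0 higher, against 36.9% and 6.51%. For MITF, 6 of 17 were lower and 2 higher, against 43% and 3.77%, with a median ratio of 0.995 against 0.624. SMARCA4 was lower at 4 and higher at 2 of 17, against 12.8% and 13.5%, and both higher calls ended when reads were not divided by depth. H3K27ac was lower at 2 and higher at 19 of 36, against 20.5% and 38%. Only retained peaks enter these counts, so peaks that were lost are not in the medians. The peaks were chosen as strong by their DMSO value, which by itself lowers the ratios, at the 4 loci and in the whole lists.

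The first start of MITF, which serves longer forms of the protein, had peaks of all 5 antibodies within 1 kb in both conditions. Its H3K27ac peak had a −log10 p of 57.1 in DMSO and 127 in FHT-1015, with 74 and 120 summit reads (ratio 1.54, interval 1.15 to 2.09), and 2 DMSO peaks were joined into 1. The SOX10 peak over the start had a −log10 p of 15.4 and 3.76, from 31 and 19 summit reads. A second FHT-1015 peak lay beside it at chr3:69740046-69740426 with 7.55. For the strongest SOX10 peak of the whole site in each condition the ratio was 0.648 (interval 0.361 to 1.15). In FHT-1015 that peak, with 8.38 from 23 reads, was another one, more than 1 kb from the start. The ratio thus compares different places and does not describe SOX10 over the start. SMARCA4 within 1 kb reached 12.3 and 14.3, and MITF had 9.19 and 10.1. At the second start, H3K27ac had 50.3 and 65.3, and neither MITF nor TFAP2A had a peak within 1 kb in either condition. SOX10 had a weak peak with its summit just over 1 kb downstream of it in both, with a −log10 p of 5.88 and 4.45 from 13 reads each. In the merged site that spans this start, chr3:69763291-69765243, TFAP2A also had a peak beyond 1 kb in both conditions, with 5.95 and 12.0. MITF had one there of 4.21 in DMSO alone.

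TFEB had no H3K27ac at its starts and many TFAP2A peaks in its window. No H3K27ac peak lay within 1 kb of any of its 3 starts in either condition, and peaks in its window went from 8 to 4 (the medians over all genes were 5 and 4), none of them in the gene body in FHT-1015. TFAP2A had 35 and 28 peaks in the window, and at chr6:41734608-41735376, over the start at position 41735060 that holds the AP-2 motif, it had a −log10 p of 27.1 and 30.6 with 41 reads in each condition. SOX10 had 5 peaks in the gene body in DMSO and 0 in FHT-1015. One of these covered the first start, at chr6:41735556-41735799, with a −log10 p of 30.4 from 72 reads, and another lay over the start at position 41735060 with 5.90.

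The strongest SOX10 peak of the TFEB window, at chr6:41747438-41748282 beside the start of PGC, the gene of a pepsinogen, had a −log10 p of 115 from 111 reads in DMSO and was not listed in FHT-1015. TFAP2A at that site went from 53.2 to 7.20 (ratio 0.290, interval 0.159 to 0.504) and SMARCA4 from 21.3 to 4.71 (ratio 0.412, interval 0.206 to 0.781). MITF had 4 peaks in each condition at TFEB and retained 0 of them (upper Wilson bound 49.0%), and the strongest, at chr6:41720044-41720691 in the gene body, had a −log10 p of 23.7 from 35 reads. By contrast, TFAP2A at the start of FRS3 and beside that of PRICKLE4, at chr6:41779845-41780702, had 350 and 370 (295 and 304 reads, ratio 1.07, interval 0.912 to 1.26). SMARCA4 over a start of MDFI, at chr6:41637625-41639168, rose from 6.39 to 55.5 (15 and 60 reads, ratio 4.36, interval 2.44 to 8.26).

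TFE3 is short, and its start carried marks of an active promoter. H3K27ac over the start had a fold enrichment of 10.1 in DMSO and 19.1 in FHT-1015 (42 and 78 reads, ratio 1.77, interval 1.20 to 2.64). SMARCA4 had a −log10 p of 5.68 and 11.0 there (15 and 19 reads, ratio 1.38, interval 0.664 to 2.92). The SOX10 peaks at the start, with −log10 p of 4.59 and 6.60 in DMSO, and the MITF peak over it, with 3.52, were not listed in FHT-1015. SOX10 peaks in the window went from 9 to 2, and TFAP2A peaks from 11 to 16. Of these TFAP2A peaks, 6 in DMSO and 10 in FHT-1015 lay in other genes, and the TFE3 body held 2 in each condition. The 6 TFAP2A peaks found in FHT-1015 alone included 0 strong ones. The strongest factor site of the window lay over the start of PRAF2 and next to WDR45, at chrX:49073506-49075150. There MITF had 70.3 and 49.5 (60 and 51 reads, ratio 0.995, interval 0.671 to 1.47) and TFAP2A 147 and 170. SOX10 went from 25.6 to 6.68 (ratio 0.382, interval 0.188 to 0.737), and H3K27ac rose from 22 to 80 reads (ratio 3.46, interval 2.14 to 5.83).

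TFEC had the lowest SOX10 retention of the 4 loci. None of its 20 SOX10 peaks was retained, which leaves a retained share of up to 16.1% by the Wilson interval, against 18.3% in the whole list. Most of these peaks were weak, with 4 strong ones and a median −log10 p of 5.10. TFEB retained 2 of 12 SOX10 peaks (interval 4.70 to 44.8), so the order of these 2 loci is uncertain. The 1 SOX10 peak at TFEC in FHT-1015 lay elsewhere with a −log10 p of 4.45. No antibody had a peak within 1 kb of the first TFEC start, and no H3K27ac peak lay at either of the 2 starts examined. Several antibodies were weaker at the same sites. At chr7:116025042-116025849, MITF went from 63.0 to 15.8 (80 and 31 reads, ratio 0.454, interval 0.290 to 0.695), TFAP2A from 32.0 to 7.47, SMARCA4 from 15.9 to 4.96 and H3K27ac from 29.3 to 12.1, and SOX10 was lost. At chr7:116091763-116092689, TFAP2A went from 127 to 8.81 (119 and 20 reads, ratio 0.175, interval 0.103 to 0.283).

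**Figure D5:**
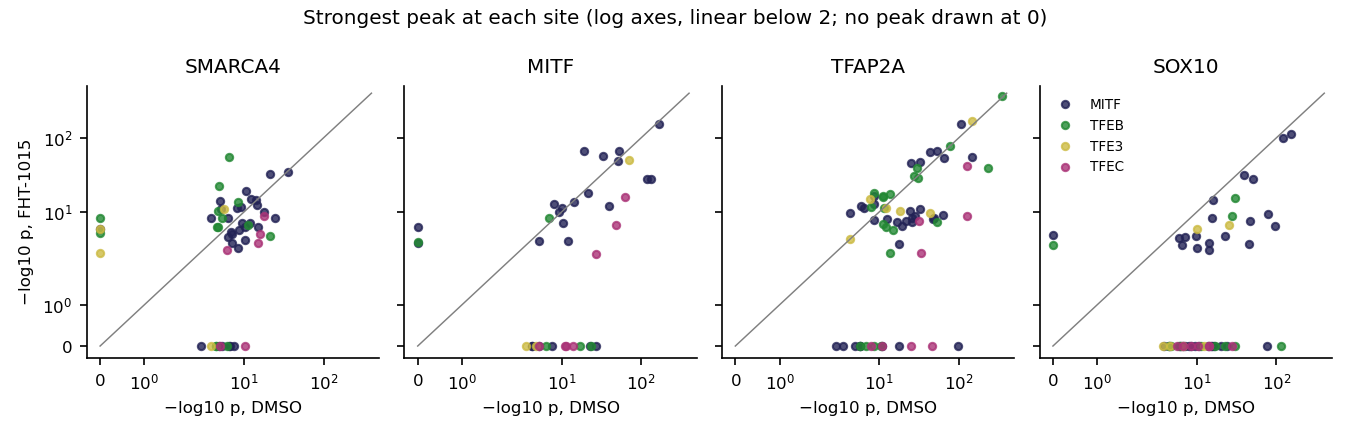
−log10 p of the strongest peak in DMSO (x axis) and FHT-1015 (y axis) at the strong sites of the 4 loci, for each factor (axes logarithmic above 2, a site without a peak is drawn at 0, the line marks equal values). SOX10 points lie under the line or at 0 in FHT-1015, except 2 sites with a peak in FHT-1015 alone, and no TFEC point lies above the line in any of the 4 panels.

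Peaks of several antibodies shared sites, and retention of SOX10 is given here by what its peaks shared. Of the 105 DMSO SOX10 peaks, 21 (20.0%) shared at least 1 bp with a DMSO peak of each of the other 4 antibodies, beside 23.5% of the DMSO SOX10 peaks in the whole list. Of these 21, 13 (61.9%) were retained. Of the other 84, 13 (15.5%) were retained. The 21 peaks on all other antibodies had a median DMSO −log10 p of 19.9, and the other 84 had one of 5.74. The part of peak strength in these shares was not tested. SOX10 peaks on H3K27ac were retained in 25 of 71 cases and those off it in 1 of 34. MITF held 64 of the 105 SOX10 peaks, 17 of the 21 on all other antibodies and 22 of the 26 retained. The 3 of the 21 that lay at TFEC were all lost. Neither split was separated from differences between the loci, and the same shares were not computed for the whole list. Of the 39 strong sites at MITF, 17 carried all 5 antibodies in DMSO, 11 did in FHT-1015, and 10 did in both. TFEB had 1 such site in DMSO and 2 in FHT-1015, TFE3 had 2 and 1, and TFEC had 2 and 0. Peaks at 1 site share their sequence and are not independent of one another.

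The genes that act on these 4 were examined in the same windows. The listed transcription regulators of MITF were SOX10, PAX3, LEF1, CREB1, ZEB2 and TFAP2A. SOX10 peaks were fewer in FHT-1015 at 6 of these 6 genes, and 0.5 times or less in 4 of the 5 with at least 10 DMSO peaks, against 73.7% of all such genes. SOX10, the neural crest factor that switches MITF on, went from 24 to 3 SOX10 peaks at its own locus. PAX3, which acts with SOX10 on the melanocyte promoter, went from 58 to 27, and LEF1, the Wnt pathway factor, from 12 to 0. TFAP2A, which acts beside MITF at pigment genes, went from 33 to 22. H3K27ac peaks over the 6 genes numbered 108 and 114, fewer at 3 genes and more at 3. They went from 18 to 13 at SOX10 and from 29 to 41 at ZEB2. The whole-list ratio of H3K27ac peak number was 0.706.

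The listed genes of the nutrient pathway that controls TFEB and TFE3 were FLCN, FNIP1, FNIP2, RRAGA, RRAGB, RRAGC, RRAGD, LAMTOR1, RPTOR, MTOR and TSC2. SOX10 peaks were fewer at 11 of 11 and 0.5 times or less in 4 of the 5 genes with at least 10 DMSO peaks, again beside 73.7% of all genes. FNIP2, a folliculin partner, went from 20 to 4 and RPTOR, the mTORC1 scaffold, from 27 to 7. H3K27ac peaks over the 11 genes numbered 128 and 82, fewer at 9 genes and more at 1, where the whole-list ratio of peak number was 0.706. MITF peaks over the 11 genes numbered 111 and 101, fewer at 5 genes and more at 5, where the whole-list ratio was 1.04. The share of all genes with any fall in number was not computed, for these genes or for the regulators of MITF. The share of SOX10 peaks retained was 38.6% over the regulators of MITF and 21.3% over the nutrient pathway, beside 24.8% at the 4 loci themselves and 18.3% in the whole list.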

How the data were processed

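ChIP-seq peak lists of 92-1 cells were used for 10 libraries, 1 per antibody and condition, and the input library is not analysed here as a list. Per the submitters' processing notes, BWA, SAMtools, Picard and MACS2 were used with hg38; settings and versions are not given in the sources used here. The deposited fold enrichment (a ratio) and −log10 p of each peak are the authors' values, and were used to describe and filter peaks within a list. Narrow lists were the main data, and broad lists an alternative.

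Peaks were assigned to a window by overlap, using Python 3.11.15, pandas 2.3.3, numpy 2.4.6 and scipy 1.17.1. Summit reads x and background λ were solved from fold = (x + 1)/(λ + 1) and the Poisson tail; x was whole within 0.02 for about 100% of peaks, after a scale of 0.890 in the SOX10 FHT-1015 list. The lowest background that at least 1% of peaks shared, per bp of the shortest peak and divided by the scale, gave relative depth. This form was inferred from the values. Ratios of summit reads carry 95% binomial counting intervals. Methods were tested on simulated data.

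The named peaks were, per gene and antibody, the strongest DMSO, lost and FHT-1015-only peaks and all peaks at annotated starts; sites described beyond these were chosen after their values were seen. The members and lists were chosen with earlier results of these data known. Sequence under intronic peaks was not analysed here. No p-value was computed, since each group held 1 library.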

Additional observations from a re-analysis of the deposited data

How the results depend on the processing

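No paired analysis was possible because each antibody and condition had 1 library, and no replicate could be left out. Over the gene body alone, 100 kb either side, broad lists, stricter lists and other overlap rules, 39 of 60 main alternatives stayed within 1.5 times (ratios) or the Wilson interval (shares), including the count of SOX10 peaks on all other antibodies, which went from 21 to 14 when the summit had to lie inside. Keeping just the peaks with a −log10 p of 10 or more in each condition moved the retained share to 94.6% (H3K27ac), 38.9% (SMARCA4), 54.2% (MITF), 46.0% (TFAP2A) and 17.1% (SOX10), and the ratio of peak number to 0.600 (TFAP2A) and 0.171 (SOX10). With a fold of 5 or more in each condition, the shares were 93.9%, 33.3%, 53.8% and 46.8% for the first 4 antibodies, the SOX10 ratio was 0.179, and the SMARCA4 ratio reversed from 0.821 to 1.08 (12 and 13 peaks). Limiting the DMSO list alone to strong peaks gave, in the same order of antibodies, 97.3%, 94.4%, 70.8%, 86.0% and 48.6%. Summits within 200 bp gave 45.0% for H3K27ac and 38.2% for SMARCA4, and covering 50% of the DMSO peak gave 17.1% for SOX10. In the gene body alone 2 numbers reversed: SMARCA4 at TFE3 had 3 and 2 peaks, and TFAP2A at TFEB 14 and 15. Dropping the depth correction, an alternative chosen after seeing the data, left 8 of 11 lower SOX10 peaks, 1 of 2 higher MITF peaks and 0 of 2 higher SMARCA4 peaks. The cause was not tested for any of these. Summit reads under about 20 give wide intervals, which limits the weaker sites.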
